A study of Rattus norvegicus with 48 samples.

Results

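Timp1 (ENSRNOG00000010208), Mmp2 (ENSRNOG00000016695) and Mmp9 (ENSRNOG00000017539) are 3 of the 32662 genes listed for these rat livers. They were chosen by their Ensembl identifiers as genes of matrix turnover, and all 3 are described here at the RNA level. Livers came from 48 male Wistar rats (RjHan:WI, purchased at 6 weeks of age) with 8 animals in each of 6 groups. 1 diet was choline-deficient and L-amino acid-defined with 1% cholesterol added (CDAA, spelled CDDA Cholesterol 1pc in the labels) and held 31% of its energy as fat and 0.17% methionine. The control diet (CSAA) was also L-amino acid-defined but choline-supplemented, with 16% of its energy as fat and 0.4% methionine. Each diet was fed for 4, 8 or 12 weeks. Carbohydrate gave 58% of the energy on CDAA and 72% on CSAA, and protein gave 11% and 12%. The diets therefore differed in choline, cholesterol, fat, carbohydrate, protein and methionine together, and the part of each cannot be told apart.

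Extracellular matrix is laid down and broken down at the same time in a scarring liver. MMP2 (gelatinase A) and MMP9 (gelatinase B) are secreted as inactive zymogens and, once activated, cleave denatured collagen and the type IV collagen of basement membranes, while TIMP1 is a secreted inhibitor that occupies the active site of such proteases. In injured liver, Mmp2 and Timp1 RNA are known from activated hepatic stellate cells and myofibroblasts, and Mmp9 from macrophages and neutrophils. RNA levels do not show secretion, zymogen activation or inhibition, so a ratio of the RNAs is not a ratio of active proteins.

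Timp1 was the only one of these genes matched, by its symbol, in the RefSeq promoter table of the assembly GRCr8. The 250 bases before its start site are shown because the gene is higher on CDAA at each week, with matches to the searched motifs in capitals. They lie at chrX:3771123-3771372 on the minus strand of GRCr8, which is not the assembly the reads were aligned to.

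Timp1 promoter: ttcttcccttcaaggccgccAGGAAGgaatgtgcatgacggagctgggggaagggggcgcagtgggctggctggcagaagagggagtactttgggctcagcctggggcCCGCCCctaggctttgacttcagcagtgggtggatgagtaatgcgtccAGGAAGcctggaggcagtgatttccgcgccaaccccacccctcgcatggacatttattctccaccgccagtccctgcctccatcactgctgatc

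The PEA3/ETS letters AGGAAG occurred 2 times, starting 230 and 94 bases before the start site, and 29.5% of 33469 promoters of this length hold them on either strand. The Sp1 letters GGGCGG occurred 1 time, on the other strand from 142 bases before the start site, and 30.5% of promoters hold them. The AP-1 letters TGANTCA (6.34% of promoters) and the Smad letters CAGACA (17.2%) are not in this window as exact matches. The window does hold TGAGTAA, which differs from the AP-1 letters only in the base before the last. Near matches were not searched, so absence of the exact letters does not show absence of a site. The marked stretches are matches of letters and not measured binding. RefSeq places Timp1 inside the span of Syn1, and although the library kit was stranded, whether counting used the strand is not given in the sources used here. Without it, reads of the pair cannot be told apart where their transcripts overlap.

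The libraries held 13619274 to 22284359 reads on genes (median 18614479). On the first principal component of all tested genes, 4 animals lay apart from the other 7 of their group. CDAA animal 303 of week 4 scored 40.1 where the others scored -46.3 to -32.2, CSAA animal 504 of week 8 scored -3.85 where the others scored 35.2 to 76.3, CSAA animal 908 of week 12 scored 1.61 where the others scored 51.2 to 66.8, and CDAA animal 1102 of week 12 scored -58.4 where the others scored -92.0 to -76.1. Results are given with these animals and, where it matters, without them. This component separates the diets and each of the 4 lay towards the other diet, so leaving them out by itself favours larger diet differences and smaller standard errors. CSAA animal 502 of week 8, at 35.2, also lay towards the other diet, where the rest of its group without 504 scored 58.8 to 76.3. It was kept when the 4 were left out, and no cut-off for choosing the 4 is given. The tables list identifiers without gene names, so other genes of matrix turnover and markers of hepatocytes, stellate cells and leukocytes were not analysed here. In bulk liver, fewer cells of a type and less RNA per cell cannot be told apart.

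To ask whether the inhibitor and the gelatinases changed on the CDAA diet, levels were first compared as RPKM (reads scaled by gene length and by the reads on genes of the library). All 3 genes were higher on CDAA than on CSAA at weeks 4, 8 and 12. Fold changes of the medians were between 7.57 and 21.7, and those of the means, on which single animals weigh more, between 4.93 and 13.4. The edgeR fits below scale the libraries in another way and gave log2 fold changes of 1.75 to 2.97.

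Timp1, the inhibitor, had the highest level of the 3 genes in each group. At week 4 its RPKM was 2.79 at the lowest, 5.01 at the median and 9.145 at the highest on CSAA, and 10.6, 40.1 and 53.98 on CDAA. At week 8 the same values were 3.13, 4.51 and 21.4 on CSAA and 33.3, 43.9 and 60.7 on CDAA. At week 12 they were 2.36, 4.15 and 16.9 on CSAA and 34.3, 58.4 and 72.6 on CDAA. The lowest CDAA animal lay above the highest CSAA animal at each week, although CDAA animal 303 at week 4 was far below its group and CSAA animals 504 and 908 were far above theirs. How many of all genes keep the diets apart in this way was not counted, here or for Mmp2 and Mmp9 below. Such separation is therefore not shown to be particular to these genes. Among the genes with a read in any animal, 71.4% had a lower median RPKM than Timp1 on CSAA at week 4 and 94.5% on CDAA at week 12.

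Mmp2, which encodes gelatinase A, ranked second. Its RPKM at week 4 was 1.64, 2.32 and 2.72 (lowest, median, highest) on CSAA and 3.04, 17.8 and 23.2 on CDAA. At week 8 it was 2.04, 2.53 and 13.2 on CSAA and 22.9, 33.7 and 55.2 on CDAA. At week 12 it was 1.505, 2.02 and 11.1 on CSAA and 26.5, 43.9 and 51.4 on CDAA. The diets again did not overlap at any week, and on CDAA the highest animal of week 4 (23.2) lay just above the lowest of week 8 (22.9).

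Mmp9, which encodes gelatinase B, was the least abundant. Its RPKM at week 4 was 0.096, 0.172 and 0.366 (lowest, median, highest) on CSAA and 0.394, 1.30 and 2.20 on CDAA. At week 8 it was 0.081, 0.1315 and 0.857 on CSAA and 0.848, 1.10 and 1.29 on CDAA. At week 12 it was 0.057, 0.1365 and 0.253 on CSAA and 0.537, 1.03 and 1.84 on CDAA. The diets did not overlap at weeks 4 and 12. At week 8, 7 of 8 CDAA animals lay above all CSAA animals, and CSAA animal 504 at 0.857 exceeded the lowest CDAA animal at 0.848. These levels rested on few reads, 3 to 43 per animal on CSAA and 22 to 139 on CDAA, where Timp1 had 36 to 251 and 172 to 1022 and Mmp2 had 69 to 645 and 204 to 3161.

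**Figure D1:**
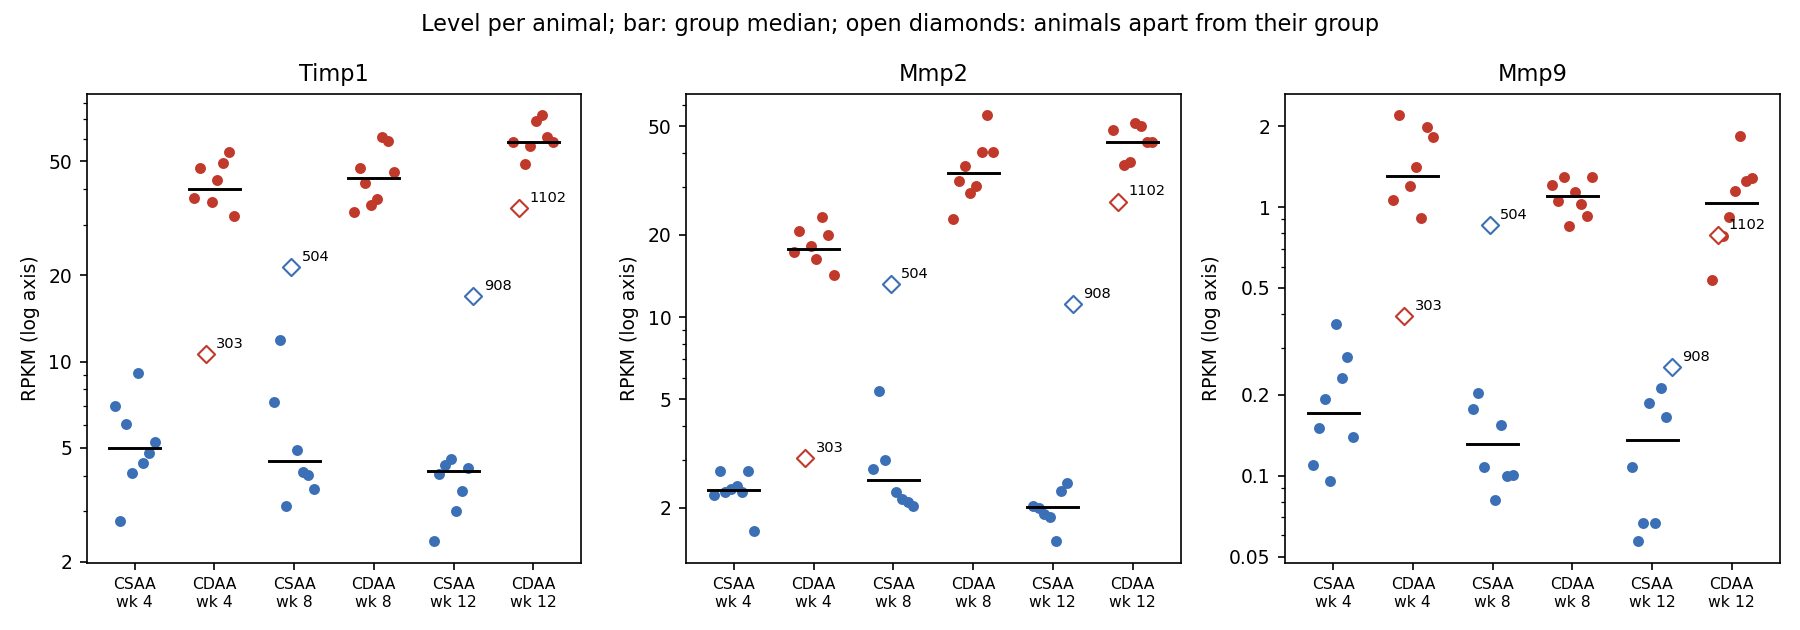
RPKM of Timp1, Mmp2 and Mmp9 (y axes, log scale) in each animal of the 6 diet and week groups (x axes, CSAA blue, CDAA red), with a bar at the group median and open diamonds for animals 303, 504, 908 and 1102. Red points lie above blue points within a week except for CSAA animal 504 in the Mmp9 panel, at 0.857 against the lowest CDAA animal at 0.848.

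In edgeR's quasi-likelihood test over 12756 genes in the 48 animals, each gene was past the thresholds at each week (adj. p value under 0.01 and a log2 fold change of 1 or more in size). The log2 fold change of Timp1, CDAA over CSAA, was 2.39 ± 0.30 (SE, adj. p value 3.64e-09, edgeR) at week 4, 2.02 ± 0.29 (adj. p value 4.00e-08) at week 8 and 2.62 ± 0.30 (adj. p value 1.09e-10) at week 12. Mmp2 differed by 2.38 ± 0.32 (adj. p value 2.35e-08), 2.57 ± 0.32 (adj. p value 1.25e-09) and 2.97 ± 0.32 (adj. p value 3.96e-11) at the same weeks. Mmp9 differed by 2.38 ± 0.33 (adj. p value 3.72e-08), 1.75 ± 0.33 (adj. p value 7.00e-06) and 2.21 ± 0.35 (adj. p value 2.43e-07). Mmp9 entered the test through its CDAA groups alone, since too few animals of any CSAA group reached 1 CPM. The shares given for Mmp9 among tested genes below rest on this entry. With no filter on low counts, Mmp9 differed by 2.39, 1.76 and 2.20 and stayed past the thresholds (adj. p values 3.06e-08, 7.45e-06 and 2.57e-07, edgeR). Genes past these thresholds and higher on CDAA were common in the whole table, at 15.7%, 18.1% and 19.4% of those tested in the order of the weeks.

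Within that background the members were among the larger differences. They were chosen with earlier results of these data known, so the shares below describe them and do not test whether they stand out. At week 4, 3.29% of tested genes had a larger log2 fold change than Timp1, 3.30% than Mmp2 and 3.32% than Mmp9. At week 8 these shares were 5.55%, 1.92% and 7.84%, and at week 12 they were 4.74%, 3.21% and 7.38%. The median log2 fold change of all tested genes was -0.02, 0.05 and -0.09 at the 3 weeks. When libraries were scaled by their size alone, that median moved to 0.39, 0.65 and 0.73, and the smallest log2 fold change of the members was then 2.81, 2.31 and 3.01. With the RPKM table and limma, which uses no TMM factors, Timp1 gave 2.76, 2.85 and 3.63 and Mmp2 gave 2.62, 3.36 and 4.01.

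1 animal decided part of the size of the Mmp9 difference at week 8, which was 2.45 without CSAA animal 504. In a test against an absolute log2 fold change of 1 in place of a filter, Mmp9 at week 8 was also the 1 member and week not called (edgeR, adj. p value 0.0188). Without animals 303, 504, 908 and 1102, the standard errors of Mmp2 fell from 0.32 at each week to between 0.15 and 0.16. Its log2 fold changes were then 2.55, 3.06 and 3.69, those of Timp1 were 2.52, 2.41 and 3.24, and those of Mmp9 were 2.53, 2.45 and 2.45.

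**Figure D2:**
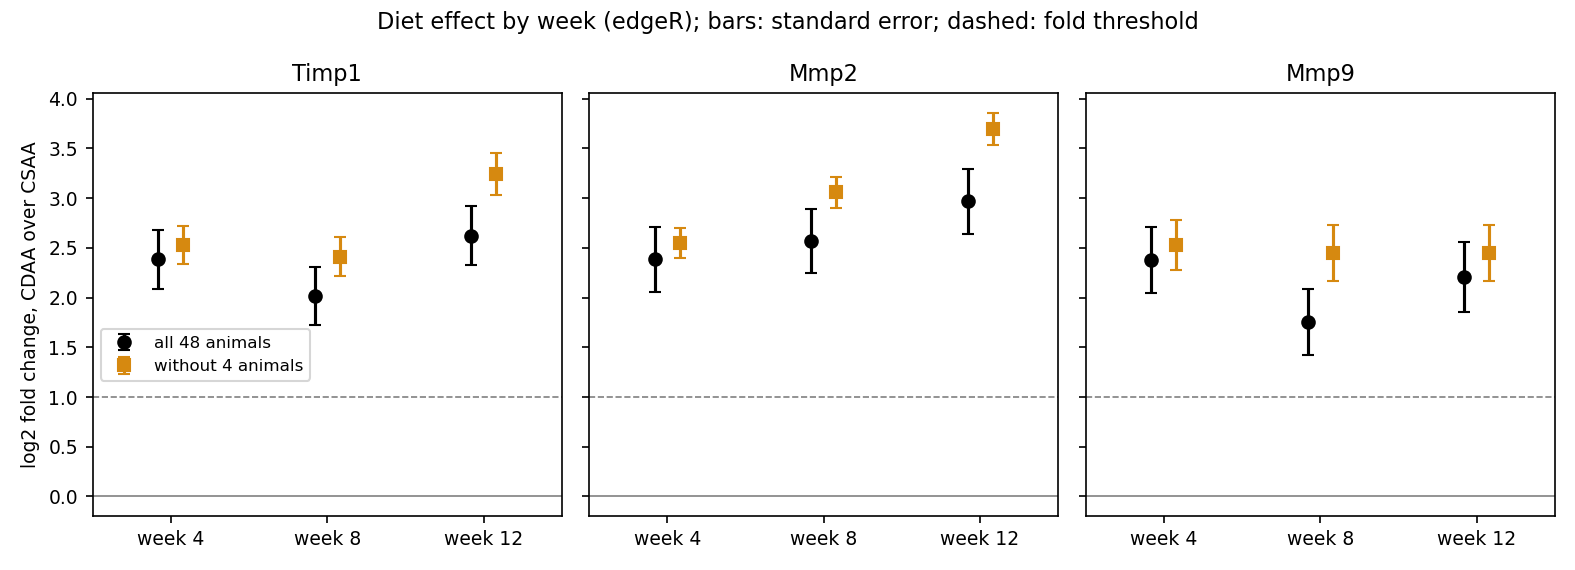
Log2 fold change of CDAA over CSAA (y axis) at weeks 4, 8 and 12 (x axis) for each gene in edgeR, from all 48 animals (black circles) and without 4 animals (orange squares), with bars of 1 standard error and a dashed line at the fold threshold of 1. With all animals the points run from 1.75 to 2.97, and without the 4 animals Mmp2 runs from 2.55 at week 4 to 3.69 at week 12.

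Whether the diet difference changed over time was tested as a diet by week interaction in the same fit. With all animals no member was past the thresholds (edgeR), where the share of tested genes was 4.25% for week 8 minus 4, 4.01% for week 12 minus 8 and 5.04% for week 12 minus 4. From week 4 to week 12 the diet difference of Mmp2 was larger by 0.58 (adj. p value 0.315, edgeR), that of Timp1 by 0.24 (adj. p value 0.688) and that of Mmp9 changed by -0.17 (adj. p value 0.825). Of the 9 interactions, 0 had an unadjusted p under 0.05 in edgeR, 0 in DESeq2 and 1 in limma-voom, with none called by any of these tools. Without CSAA animal 908 alone, the increase of Mmp2 was 1.16 (adj. p value 0.0108, edgeR), short of the adj. p value threshold. Without the 4 animals, whose choice is tied to the diet response, it was 1.15 ± 0.21 (SE, adj. p value 5.49e-05, edgeR) and past the thresholds, while that of Timp1 was 0.72 (adj. p value 0.0385) and that of Mmp9 was -0.08 (adj. p value 0.910).

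Between weeks on CDAA, 1 of the 3 genes was past the thresholds in edgeR. Mmp2 rose by a log2 fold change of 1.02 ± 0.30 (SE, adj. p value 0.00303, edgeR) from week 4 to week 12, just past the fold threshold, in a contrast where 10.6% of tested genes changed in either direction. Its step from week 4 to week 8 was 0.86 (adj. p value 0.0139) and its step from week 8 to week 12 was 0.16 (adj. p value 0.822). This call did not hold without CDAA animal 303 of week 4, where the difference between weeks 4 and 12 was 0.87 (adj. p value 0.00770, edgeR), below the fold threshold. Without the 4 animals the difference was 0.99 (adj. p value 1.78e-07), also below that threshold. Of the CDAA animals only 303 and 1102 were left out singly for this contrast, and the call held without 1102 (1.09). Whether other single animals would end it was not tested. Background shares for the steps were 5.02% and 1.43%.

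Timp1 on CDAA differed by -0.02 between weeks 4 and 8 (adj. p value 0.964, edgeR) and by 0.24 between weeks 4 and 12 (adj. p value 0.444). Mmp9 on CDAA differed by -0.54 (adj. p value 0.110) and -0.68 (adj. p value 0.0354) over the same intervals, in the other direction from Mmp2 and short of the threshold. Between weeks 4 and 12, Mmp9 differed by -0.81 without animal 303 (adj. p value 0.00951, edgeR). Without the 4 animals the value was -0.72 (adj. p value 0.00513, edgeR). Both were past the adj. p value threshold but not the fold threshold. On the control diet no member was past the thresholds between weeks in edgeR, limma-voom or DESeq2, and of 9 contrasts 1, 0 and 1 had an unadjusted p under 0.05. Of the tested genes, 0.047%, 2.78% and 2.68% were called from week 4 to 8, 8 to 12 and 4 to 12 (edgeR). Ordered by median RPKM, CDAA week 12 was highest and CDAA week 4 lowest of the CDAA groups for Timp1 and Mmp2, whereas the order was inverse for Mmp9. For Timp1 the order of weeks 4 and 8 depended on the measure. By mean TMM-scaled CPM week 8 (25.8) was below week 4 (26.05), and by mean log2 CPM it was above (4.67 against 4.62). In edgeR, neighbouring groups of 1 diet in these orders did not differ past the thresholds in any of the 3 genes. With the RPKM table and limma, Mmp2 on CDAA differed past them between weeks 4 and 8, by 1.22 (adj. p value 0.00172).

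The Timp1 to Mmp ratio was formed in each animal from RPKM plus 0.01, which removes the scaling of the library, and compared by two-sided exact permutation tests of 8 against 8 animals on the log2 scale. P values were adjusted over 27 comparisons, and 0.000155 is the smallest p these splits can give. The Timp1 to Mmp2 ratio on CSAA had a geometric mean of 2.23, 1.84 and 1.79 at weeks 4, 8 and 12. On CDAA it was 2.41, 1.28 and 1.36.

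At week 4 single animals ranged from 1.02 to 3.81 on CSAA and from 1.98 to 3.49 on CDAA. At week 8 the ranges were 1.05 to 2.60 and 1.07 to 1.51, and at week 12 they were 1.16 to 2.47 and 1.20 to 1.53. The CDAA animals of weeks 8 and 12 lay within the lower part of the CSAA range, and below each CDAA animal of week 4.

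Between the diets the Timp1 to Mmp2 ratio was lower on CDAA by a log2 difference of -0.53 at week 8 (adj. p value 0.0246, exact permutation test) and -0.40 at week 12 (adj. p value 0.0362), and differed by 0.12 at week 4 (adj. p value 0.773). Within CDAA it fell by 0.92 on the log2 scale from week 4 to week 8 and by 0.83 up to week 12 (adj. p value 0.00105 for both, exact permutation test). On CSAA the differences between weeks were -0.27, -0.04 and -0.32 (adj. p values 0.422 to 0.848). The change of the diet difference itself, -0.64 for week 8 minus 4 and -0.52 for week 12 minus 4, did not pass the test (adj. p value 0.283 for both, exact permutation over 9 comparisons). Of the 16 animals compared at week 12, leaving out animal 901, 906, 908 or 1104 kept the call and leaving out any 1 of the other 12 ended it.

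**Figure D3:**
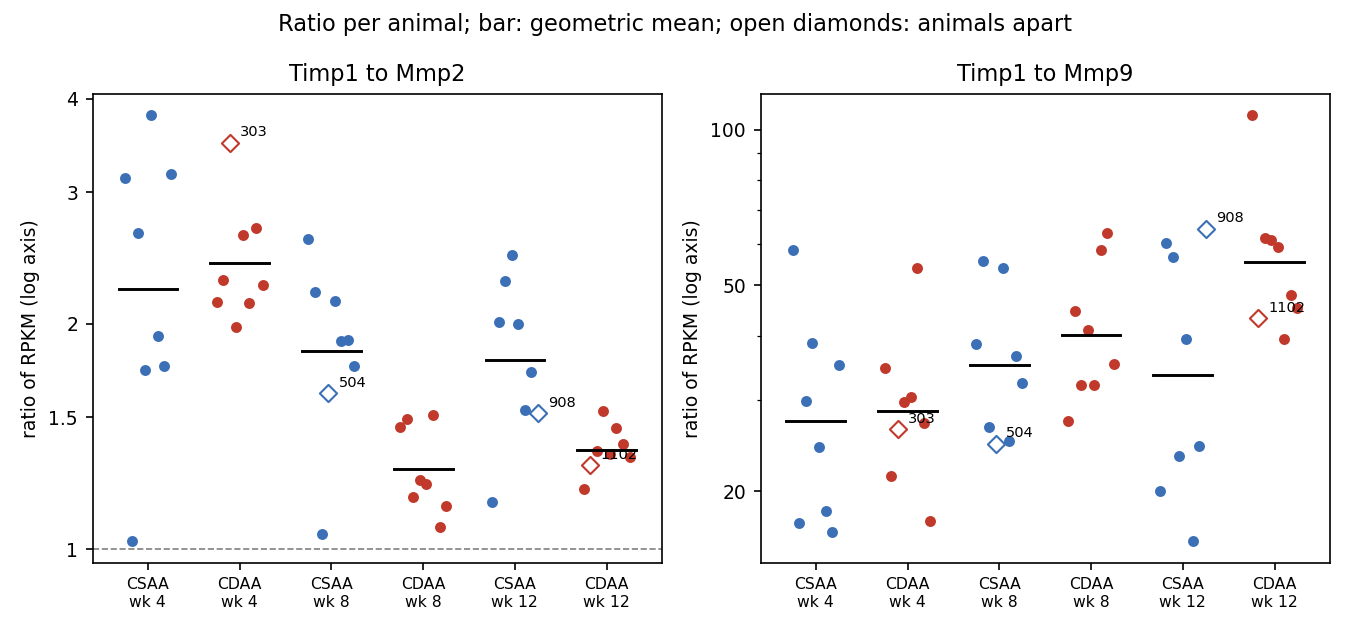
Ratio of RPKM of Timp1 to Mmp2 and of Timp1 to Mmp9 (y axes, log scale) in each animal of the 6 groups (x axes, CSAA blue, CDAA red), with a bar at the geometric mean and open diamonds for animals 303, 504, 908 and 1102. On CDAA the Timp1 to Mmp2 ratio goes from 2.41 at week 4 to 1.28 at week 8, and the Timp1 to Mmp9 ratio from 28.6 at week 4 to 55.4 at week 12.

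At weeks 8 and 12 the direction of the diet difference in this ratio changed when a trend on gene length was removed. The length implied by reads and RPKM was 741 bases for Timp1, 3071 for Mmp2 and 3162 for Mmp9, and in these libraries the deviation of all genes from their mean followed gene length differently in each group. At the lengths of the members, the smooth trend for Timp1 minus that for Mmp2 averaged 0.43, 0.50 and -0.03 (log2) on CSAA and 0.10, -0.49 and -0.51 on CDAA at weeks 4, 8 and 12. It was lower on CDAA than on CSAA at each week, and on CDAA lower at weeks 8 and 12 than at week 4. With the trend of each animal removed, the Timp1 to Mmp2 ratio at week 8 was higher on CDAA by 0.46 (adj. p value 0.0210, exact permutation test) instead of lower, at week 4 it was higher by 0.45 (adj. p value 0.0423) and at week 12 it differed by 0.07 (adj. p value 0.568). The differences within CDAA kept their direction at -0.33 from week 4 to week 8 (adj. p value 0.0210) and -0.23 from week 4 to week 12 (adj. p value 0.0406, exact permutation test). The length trend and the diet cannot be told apart in this design.

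The diet differences of the single genes were less touched by this. With the trend removed, the 3 members stayed past the thresholds at each week (edgeR), with the smallest log2 fold change 2.12, 1.42 and 1.93 at weeks 4, 8 and 12. Timp1 was then at 2.63 in place of 2.02 at week 8. The rise of Mmp2 on CDAA from week 4 to week 12 was then 0.85 (adj. p value 0.00702), below the fold threshold. Mmp9 differed by -0.86 over these weeks (adj. p value 0.00506, edgeR), also short of the fold threshold. Apart from leaving out animal 303 or the 4 animals, other alternatives gave Mmp9 an adj. p value of 0.0143 (limma-voom) or higher here.

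The Timp1 to Mmp9 ratio moved the other way. Its geometric mean was 27.3, 35.02 and 33.5 on CSAA and 28.6, 40.1 and 55.4 on CDAA at weeks 4, 8 and 12. Animals overlapped widely, from 16.0 to 64.4 on CSAA and from 39.4 to 106.8 on CDAA at week 12. Within CDAA the ratio was higher at week 12 than at week 4 by a log2 difference of 0.95 (adj. p value 0.00588, exact permutation test). On CSAA it differed by 0.30 over the same weeks (adj. p value 0.538, exact permutation test). The change of the diet difference itself, 0.66 for week 12 minus 4, did not pass the test (adj. p value 0.283, exact permutation over 9 comparisons). A rise particular to CDAA is therefore not shown. Between the diets the differences were 0.07, 0.20 and 0.72 (adj. p values 0.848, 0.525 and 0.115, exact permutation test), none past the threshold of 0.05.

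With the length trend removed, the Timp1 to Mmp9 ratio was higher on CDAA by 1.18 at week 8 (adj. p value 0.00420, exact permutation test) and by 1.20 at week 12 (adj. p value 0.0136), and the change within CDAA from week 4 to week 12 was 1.56. The ratio of Timp1 to the sum of both gelatinases followed Mmp2, the more abundant of the pair. It was lower on CDAA by -0.50 at week 8 (adj. p value 0.0246, exact permutation test) and, with the length trend removed, higher by 0.48 (adj. p value 0.0151). Within CDAA the sum ratio differed by -0.84 for week 8 minus 4 and by -0.74 for week 12 minus 4 (adj. p value 0.00105 for both, exact permutation test). With the length trend removed these were -0.25 (adj. p value 0.0401) and -0.14 (adj. p value 0.146, no longer called, exact permutation test). Without that removal, the change of the diet difference in the sum ratio was -0.61 for week 8 minus 4 and -0.47 for week 12 minus 4. Neither passed the test (adj. p value 0.283 for both, exact permutation).

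**Figure D4:**
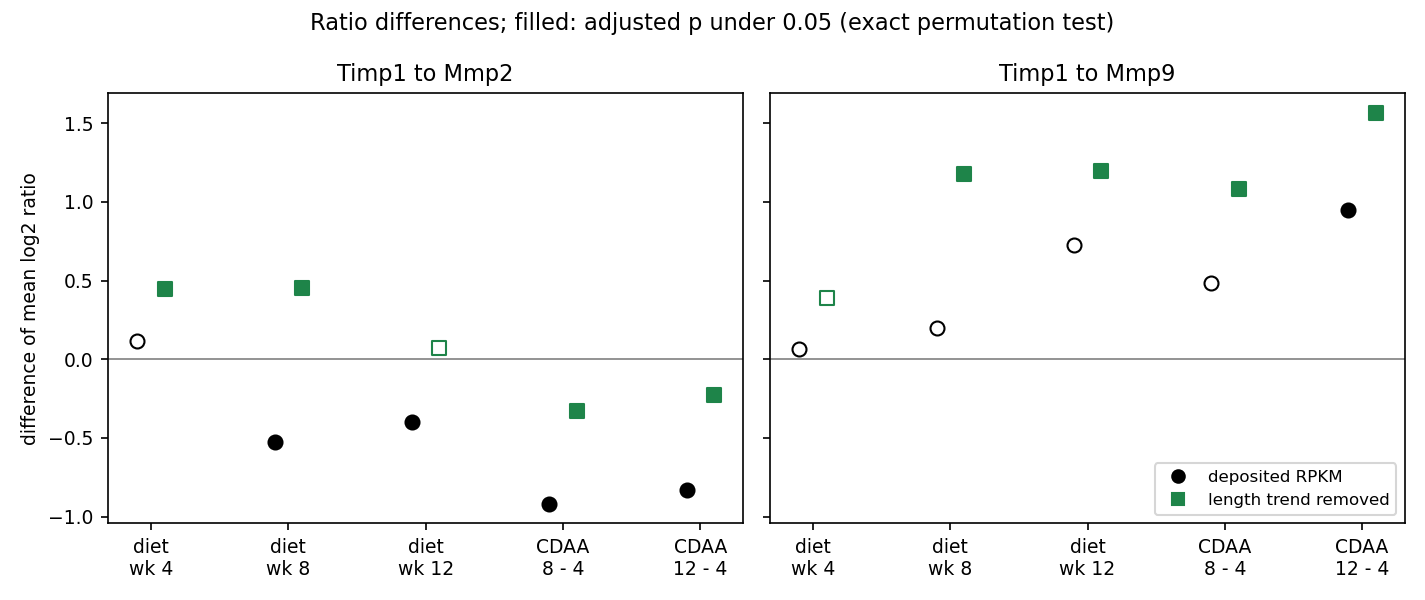
Difference of the mean log2 ratio (y axis) of Timp1 to Mmp2 and Timp1 to Mmp9 for the diet comparison at each week (CDAA minus CSAA) and for 2 comparisons of weeks within CDAA (x axis), from deposited RPKM (black circles) and with the length trend of each animal removed (green squares), filled where the adjusted p is under 0.05. At week 8 the Timp1 to Mmp2 difference lies at -0.53 before and at 0.46 after removal of the trend.

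Within groups, animals with more Timp1 also had more Mmp2 on CDAA. Over the 8 CDAA animals of a week, Pearson's r of log2 CPM (TMM-scaled counts) was 0.97, 0.85 and 0.93 at weeks 4, 8 and 12 (adj. p value 0.0197 each, exact permutation over 18 relations). Spearman's rho was 0.74, 0.67 and 0.81 (adj. p values 0.207, 0.207 and 0.196, exact permutation), none past 0.05. Without the 2 animals farthest from the median of Timp1, r was 0.80, 0.79 and 0.79.

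On CSAA, r of Timp1 and Mmp2 was -0.49 at week 4 (adj. p value 0.295, exact permutation), 0.90 at week 8 (adj. p value 0.0197) and 0.91 at week 12 (adj. p value 0.117). Without the 2 farthest animals it was -0.32, 0.21 and 0.26, so the relation at week 8 rested on animals 504 and 502. At CSAA week 8, r of Mmp9 with Timp1 was 0.87 and with Mmp2 0.92 (adj. p value 0.0197 for both, exact permutation), and 0.53 and 0.29 without the same pair of animals. In the CDAA groups r of Timp1 and Mmp9 was 0.76, -0.51 and 0.53 at weeks 4, 8 and 12 (adj. p values 0.117 to 0.295, exact permutation).

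**Figure D5:**
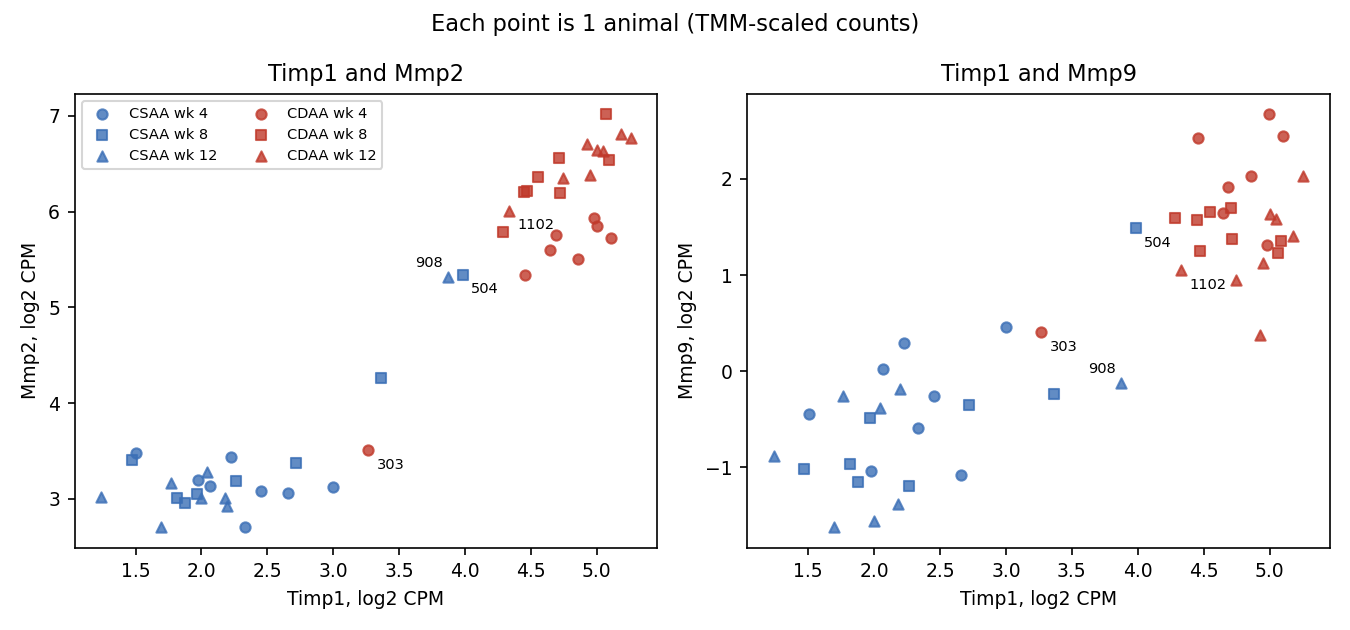
Log2 CPM of Mmp2 and of Mmp9 (y axes) against log2 CPM of Timp1 (x axes), with 1 point per animal, CSAA blue and CDAA red, and circles, squares and triangles for weeks 4, 8 and 12. CDAA animal 303 lies next to the CSAA points in both panels, and CSAA animals 504 and 908 lie between the diets in the panel of Mmp2.

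Over the 24 CDAA animals, as deviations from the mean of each week, r of Timp1 and Mmp2 was 0.94, and 0.16% of tested genes had a higher r with Timp1 than Mmp2 did. Leaving out animals 303 and 1102 gave 0.81 over 22 animals, for which the share of genes was not counted. Over the 24 animals r was 0.58 for Timp1 and Mmp9 and 0.54 for Mmp2 and Mmp9, and 0.14 and -0.07 without animals 303 and 1102. The pool of each library and the cell composition of each animal's tissue piece are not known, so their part in these values was not tested. By the 6 group means of log2 CPM, centred per gene, the gene nearest to Timp1 was ENSRNOG00000033235 with a root mean square difference of 0.06 and the gene nearest to Mmp2 was ENSRNOG00000007302 with 0.07. Mmp2 itself lay at 0.34 from Timp1, with 2.38% of tested genes nearer, and Mmp9 at 0.34, with 2.36% nearer.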

How the data were processed

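Stranded mRNA libraries from liver RNA of 48 rats were sequenced as single-end reads of 85 bases. The authors aligned them with STAR to Rnor_6.0 and used featureCounts with Ensembl 84 for the raw counts they deposited. They also deposited RPKM, scaled by gene length and by the reads on genes of each animal. For Mmp9, 7 animals (6 on CSAA) had an RPKM more than 5% above what their counts give.

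Members and lists were chosen with earlier results of these data known. The quasi-likelihood test of edgeR 4.0.16 (R 4.3.3) was fitted to the counts of all animals with TMM factors and a mean for each of the 6 groups. A gene entered when 5 of 8 animals of any group reached 1 CPM, which 12756 genes did, and Benjamini-Hochberg adjustment covered these genes. Calls needed an adjusted p under 0.01 and a log2 fold change of 1 or more in size, as in the paper. Named were the members and the identifier nearest to each of 2 members by group means. Ratios were tested by exact permutation over 12870 splits with scipy 1.17.1 and numpy 2.4.6. The length trend of an animal was a smooth curve of log2 deviations on log2 gene length. Alternatives were limma-voom (limma 3.58.1, the paper's test), DESeq2 1.42.0, RLE factors, library size alone, no filter, the RPKM table with limma, single weeks, a minimum-fold test, removal of the length trend, other pseudocounts, medians, and animals left out. For contrasts of weeks and for interactions, leaving out animal 303, 504, 908 or 1102 alone, the RPKM table, no filter and the minimum-fold test were chosen after seeing the data. The scripts were tested on simulated data. The labels name no batch, and the pool of each library is not given in the sources used here. Each animal is 1 sample, so the spread is between animals. The paper reports that the rats were housed in pairs. The labels do not name cage mates, so a shared cage was not taken into account.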

Additional observations from a re-analysis of the deposited data

Results flagged for a closer look

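Dixon's test for a single distant value was applied on the log2 scale to 36 sets of 8 animals (6 measures in 6 groups). It found 7 values, and about 1.8 would be found by chance. Animals 303, 504 and 908, which also lay apart over all genes, held 5 of them. CDAA animal 303 of week 4 had a Timp1 RPKM of 10.6, where the next lowest animal had 32.2, and a Mmp2 RPKM of 3.04, where the next had 14.3. CSAA animal 908 of week 12 had a Timp1 RPKM of 16.9, where the next highest had 4.57, and a Mmp2 RPKM of 11.1, where the next had 2.47. CSAA animal 504 of week 8 had a Mmp9 RPKM of 0.857, where the next highest had 0.203. The other two values were the Mmp2 RPKM of CSAA animal 108 of week 4, 1.64 where the next lowest had 2.235, and the Timp1 to Mmp9 ratio of CDAA animal 1101 of week 12, 106.8 where the next highest had 61.8. On values not logged, a scale added after seeing the data, 9 values were found and 6 of these were the same. Timp1 of animal 303 was not among them, and added were Mmp2 of animal 504 (RPKM 13.2, next highest 5.37), the Timp1 to Mmp2 ratio of animal 303 (3.49, next 2.69) and the Timp1 to Mmp9 ratio of CDAA animal 306 of week 4 (53.9, next 34.6).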

How the results depend on the processing

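The 9 diet differences of the genes kept direction and call in 125 values from other tests, scalings and filters and in 144 from leaving out single animals. The exception was Mmp9 at week 8, not called against the fold threshold of 1 (1.75, adj. p value 0.0188, edgeR). Sizes moved more, up to 3.63 for Timp1 and 4.01 for Mmp2 at week 12 (2.62 and 2.97 in edgeR) with the RPKM table and limma, and to 2.63 for Timp1 at week 8 (2.02) with the length trend removed. The rest was less stable, and the cause was not tested. Without animals 303, 504, 908 and 1102, Mmp2 gave a diet by week value (12 minus 4) of 1.15, now called, and on CDAA (12 minus 4) 0.99, on CSAA (12 minus 4) Mmp2 gave -0.15 and Timp1 -0.48, Mmp9 on CSAA (8 minus 4) -0.54, and the Timp1 to Mmp2 ratio at week 12 -0.42, no longer called. Timp1 on CDAA (8 minus 4), at -0.02, became 0.0287 with DESeq2, 0.0272 with RLE factors, 0.0321 with limma-voom, 0.22 with library size alone and 0.41 with the length trend removed. Timp1 on CSAA (12 minus 4), at 0.01, became -0.025 with DESeq2, -0.032 with RLE factors, -0.033 with library size alone and -0.19 with limma-voom. Mmp9 on CSAA (8 minus 4) became -0.15 with limma-voom. With library size alone, Mmp2 on CDAA (8 minus 4) was called at 1.10 and the diet by week value of Mmp9 (12 minus 4) became 0.20.

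These settings were chosen after seeing the data. Without animal 303, Mmp2 on CDAA (12 minus 4) was 0.87 and not called, and at 1.02 it was not called in the test against a fold of 1 either. With the RPKM table and limma, Mmp2 on CDAA (8 minus 4) was called at 1.22. That table also gave Timp1 0.0917 (diet by week, 8 minus 4), 0.31 (CDAA, 8 minus 4) and -0.21 (CSAA, 12 minus 4), and Mmp9 0.0339 (diet by week, 12 minus 4) and -0.055 (CSAA, 8 minus 4). Without animal 504, Timp1 gave 0.0111 (diet by week, 8 minus 4), 0.0327 (CDAA, 8 minus 4) and -0.0041 (CSAA, 12 minus 4), Mmp2 gave -0.0122 (diet by week, 12 minus 8) and 0.17 (CSAA, 12 minus 8), and Mmp9 gave 0.0542 and -0.16 (diet by week, 8 minus 4 and 12 minus 8), -0.54 (CSAA, 8 minus 4) and 0.023 (CSAA, 12 minus 8). Without animal 908, Timp1 gave -0.46 and Mmp2 -0.14 on CSAA (12 minus 4).

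With the length trend removed, Mmp2 on CDAA (12 minus 4) was 0.85 and not called, Timp1 on CSAA (12 minus 8) became 0.0066 and its diet by week value (8 minus 4) 0.12. The Timp1 to Mmp2 ratio then gave 0.45, 0.46 and 0.0731 between the diets at weeks 4, 8 and 12, 0.49 and 0.15 on CSAA (12 minus 8, 12 minus 4), and 0.0089 and -0.38 for the diet difference between weeks (8 minus 4, 12 minus 8). The Timp1 to Mmp9 ratio gave 1.18 and 1.20 at weeks 8 and 12, 1.08 on CDAA (8 minus 4) and 0.46 on CSAA (12 minus 8). The sum ratio gave 0.44, 0.48 and 0.11 at weeks 4, 8 and 12, -0.14 on CDAA (12 minus 4, no longer called), 0.48 and 0.18 on CSAA (12 minus 8, 12 minus 4), and 0.0416 and -0.37 for the diet difference between weeks (8 minus 4, 12 minus 8).

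A larger pseudocount weighs on the low Mmp9. With RPKM plus 0.1 the Timp1 to Mmp9 ratio was called at 0.73 and 1.36 at weeks 8 and 12, and with RPKM plus 1 at 1.61, 1.86 and 2.53 at weeks 4, 8 and 12 (CSAA, 12 minus 4, -0.10). With RPKM plus 1 the Timp1 to Mmp2 ratio was -0.36 and -0.20 at weeks 8 and 12 and the sum ratio -0.36 at week 8, none of them called. Reads in place of RPKM gave 0.0352 for Timp1 to Mmp9 on CSAA (12 minus 8) and -0.38 for the sum ratio at week 12, now called, and medians gave the sum ratio -0.42 at week 12, now called, and -0.0053 at week 4. With log2(RPKM + 0.1), r of Mmp2 and Mmp9 at CSAA week 12 was called at 0.65.

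Leaving out single animals, the Timp1 to Mmp2 ratio ranged from -0.0436 to 0.23 at week 4, from -0.49 to -0.33 at week 12 (called in 4 of 16) and from -0.16 to 0.0483 on CSAA (12 minus 8). The Timp1 to Mmp9 ratio ranged from -0.0621 to 0.23 at week 4, from 0.385 to 0.62 on CDAA (8 minus 4, called in 1 of 16, without animal 306) and from -0.20 to 0.0886 on CSAA (12 minus 8). The sum ratio ranged from -0.0463 to 0.21 at week 4, from -0.45 to -0.30 at week 12 (called in 2 of 16, without animal 901 or 906) and from -0.16 to 0.0421 on CSAA (12 minus 8). The intended counts of a matrix turnover list and of marker lists were not run, since identifiers could not be paired with names. No paired analysis was made, since each group holds different animals. With 3 to 43 reads per CSAA animal, depth limits Mmp9 more than Timp1 or Mmp2.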
